A study of Mus musculus with 16 samples.

Results

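The 37 genes described here encode the contractile apparatus of skeletal muscle and the calcium and energy proteins that serve it, measured in the subcutaneous fat of the mouse groin (inguinal white adipose tissue). They were taken by name as a fixed list and found among the 55487 genes of the count table. Of them, 33 passed the filter on low counts and were tested, and Myh7, Myl2, Tnni1 and Tnnc2 did not. RNA came from 16 male mice aged 6 to 7 months, either lacking Kmo in the whole body (KO) or wild-type littermates (WT), on chow or a high-fat diet (HFD), with 4 mice in each of the 4 groups of genotype and diet. Kmo encodes kynurenine 3-monooxygenase, an enzyme of tryptophan breakdown, and was the only difference in genotype that the labels gave. Adipocyte markers were high in every library (Adipoq 25221 to 52041 counts), so the libraries were adipose tissue by their defining genes.

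Skeletal muscle fibres shorten when thick filaments of myosin pull on thin filaments of actin, after calcium released from the sarcoplasmic reticulum binds the troponin complex on the thin filament. Fast-twitch and slow-twitch fibres use different genes for myosin, troponin and their partners. White fat cells do not build sarcomeres, while the inguinal depot lies against the muscles of the groin and leg and can also hold beige adipocytes, which make heat with Ucp1. In bulk tissue fewer cells of a type and less RNA per cell cannot be told apart.

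Libraries held 13824404 to 16909361 counted read pairs. Kmo had 40 to 298 counts in the 8 WT libraries and 1 to 8 in the 8 KO libraries, in the direction of their labels. WT chow replicate 3 and WT HFD replicate 3 stood apart by the most counts of the members. The medians for genotype and diet that rest on them are also given without both. Read pairs were counted without strand, so a member that overlaps another gene is uncertain: Tnnc2, the fast troponin C, shares 74.0% of its exon bases with Ube2c on the other strand and had 7 counts over all libraries, while fast Tnnt3 and Tnni2 had 20354 and 11003.

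Promoter sequences of 3 members are shown because Acta1 and Myh4 were high and low in the same libraries and Myl3 was not. Each is the 250 bases before the RefSeq transcript start (GRCm38.p6), printed 5′ to 3′ along the gene, with capitals on E-boxes (CANNTG), MEF2 sites, CArG boxes and TATA boxes (TATAAA), each searched on both strands.
Acta1 (chr8:123894776-123895025, minus strand): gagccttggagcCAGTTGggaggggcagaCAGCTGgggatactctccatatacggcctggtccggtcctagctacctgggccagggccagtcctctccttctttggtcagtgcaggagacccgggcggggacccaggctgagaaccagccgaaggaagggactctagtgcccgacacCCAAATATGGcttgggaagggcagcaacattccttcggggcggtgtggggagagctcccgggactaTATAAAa
Myh4 (chr11:67237562-67237811, plus strand): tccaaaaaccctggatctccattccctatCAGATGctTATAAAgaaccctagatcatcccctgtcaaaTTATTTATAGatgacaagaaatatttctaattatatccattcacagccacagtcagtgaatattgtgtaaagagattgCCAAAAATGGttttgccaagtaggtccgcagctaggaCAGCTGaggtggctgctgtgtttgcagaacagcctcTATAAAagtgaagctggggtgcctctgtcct
Myl3 (chr9:110763428-110763677, plus strand): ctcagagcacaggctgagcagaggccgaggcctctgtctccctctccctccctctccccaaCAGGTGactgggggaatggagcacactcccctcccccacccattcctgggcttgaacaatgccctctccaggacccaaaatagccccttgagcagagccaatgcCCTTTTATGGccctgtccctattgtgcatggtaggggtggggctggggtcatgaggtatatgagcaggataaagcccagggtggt
RefSeq windows were matched for 28 of the 37 members. An E-box, the motif of the MyoD family, was in 23 of the 28 (82.1%) and in 17848 of 27025 windows of the same length, 1 for each gene (66%). A MEF2 site was in 5 of 28 (17.9%) against 813 (3%) of all windows, a CArG box, the motif of serum response factor, in 4 (14.3%) against 378 (1.4%), and TATAAA in 5 (17.9%) against 3504 (13%). In the Acta1 window the CArG box began 73 bases before the start, in Myh4 104 bases and in Myl3 85 bases before it. Motifs were matched by letters alone, which describes the sequence and shows no binding. The Myl3 window lies inside the span that the Ensembl annotation gives the gene, whose first exon starts further upstream.

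The members took 0.0155% to 0.691% of the counted read pairs, a 44.7-fold range between single libraries of one tissue. The share was 0.137%, 0.0239%, 0.691% and 0.0228% in WT chow replicates 1 to 4, and 0.134%, 0.0155%, 0.0167% and 0.142% in KO chow. In WT HFD it was 0.0912%, 0.104%, 0.329% and 0.0206%, and in KO HFD 0.0782%, 0.0167%, 0.0508% and 0.0176%. The lowest library of each group lay between 0.0155% and 0.0228% and the highest between 0.0782% and 0.691%, so all groups overlapped. The mean on chow was 0.219 ± 0.320% for WT and 0.0768 ± 0.0702% for KO, and on HFD 0.136 ± 0.133% for WT and 0.0408 ± 0.0295% for KO (SD, n = 4). Without replicate 3 the WT chow mean was 0.0614% and the WT HFD mean 0.0719%. For single libraries the 95% Wilson interval ran from 0.0149% to 0.0161% in the lowest and from 0.687% to 0.695% in the highest; it covers counting error only.

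**Figure D1:**
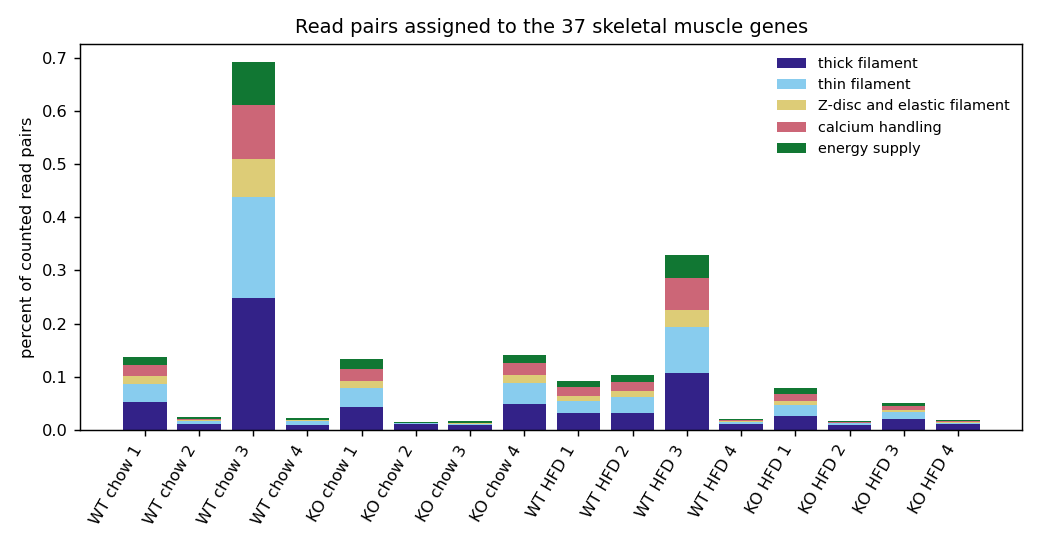
Percent of counted read pairs assigned to the 37 genes in each of the 16 libraries (bars, stacked by role of the protein). The tallest bar is WT chow 3 at 0.691%, then WT HFD 3 at 0.329%, and each of the 4 groups holds a library of at most 0.0228%.

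Thick-filament genes took the largest part of the members' counts, 31.1% to 67.0% of them in single libraries, and thin-filament genes 11.4% to 30.0%. Myl1, the fast alkali light chain of myosin, was the member with the highest level per length in this role (mean 213 TPM). It was, by replicate, in WT chow at 157, 71.5, 511 and 70.2 CPM, KO chow at 128, 105, 77.6 and 151, WT HFD at 115, 106, 233 and 88.4 and KO HFD at 97.1, 84.4, 103 and 94.4. It was abundant everywhere, from 70.2 CPM in WT chow 4 to 511 CPM in WT chow 3. Mylpf, the fast regulatory light chain, was, by replicate, in WT chow at 34.1, 3.91, 279 and 4.98 CPM, KO chow at 46, 0.814, 2.84 and 41.4, WT HFD at 28.8, 29.9, 101 and 3.59 and KO HFD at 25.2, 1.53, 16.3 and 2.79. Mylpf was at 0.814 CPM in KO chow 2 and low in the libraries with few member counts. Myl1 was at the low end of its own range in most of these libraries, but still at 70.2 CPM or more. Myh4, the heavy chain of the fastest (IIB) fibres, was, by replicate, in WT chow at 288, 16.9, 1602 and 6.45 CPM, KO chow at 221, 1.7, 1.63 and 223, WT HFD at 151, 145, 661 and 11.7 and KO HFD at 112, 1.74, 73.4 and 4.11. Its highest and lowest libraries were both on chow, and the 4 groups overlapped.

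On the thin filament, Acta1, skeletal alpha-actin, had the highest level per length of all members (mean 340 TPM). Acta1 was, by replicate, in WT chow at 171, 39.8, 911 and 49.7 CPM, KO chow at 159.8, 11.9, 7.8 and 186, WT HFD at 129, 173, 473 and 45.3 and KO HFD at 98.6, 28.8, 81.7 and 22.2. It was lowest in KO chow 2 and 3 and highest in WT chow 3 and WT HFD 3. Tnnt3, fast troponin T, was, by replicate, in WT chow at 85, 9.87, 611 and 3.64 CPM, KO chow at 106, 2.44, 1.99 and 98, WT HFD at 52.6, 60.1, 215 and 4.98 and KO HFD at 50.7, 2.8, 26.2 and 4.32. Tnni2, fast troponin I, whose gene lies near Tnnt3 on chromosome 7, ranged over 1.09 to 316 CPM (median 20.3), and Neb, the long ruler protein of the thin filament, over 2.4 to 135 CPM (median 15.1). The slow thin-filament genes were scarce in all groups: Tnnt1, slow troponin T, had 123 counts in all, Tnni1, slow troponin I, 74, and Tnnc1, the troponin C of slow and cardiac muscle, 156.

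At the Z-disc, where the thin filaments of neighbouring sarcomeres are anchored, Actn3, the fast-fibre actinin, was, by replicate, in WT chow at 51.2, 3.17, 259.6 and 1.21 CPM, KO chow at 36.8, 0.814, 0.181 and 35.5, WT HFD at 37.2, 35.8, 120.04 and 2.2 and KO HFD at 29.8, 1.07, 14.9 and 0.907. Tcap, which caps the end of titin, was, by replicate, in WT chow at 9.38, 1.06, 48.6 and 0.383 CPM, KO chow at 15.3, 0.407, 0.242 and 17.6, WT HFD at 9.66, 4.72, 27.4 and 0.441 and KO HFD at 5.38, 0.467, 3.13 and 0.767. Both were highest in WT chow 3 and then WT HFD 3, as Myh4 was. Ttn, the giant elastic filament, ranged over 0.601 to 239.6 CPM (median 19.97). Myoz1, which binds actinin and calcineurin, spanned 0.2 to 82.2 CPM (median 5.15) and Xirp2, an actin-binding repeat protein, 0 to 52 CPM (median 2.76). Ldb3, a PDZ protein of the Z-disc also known as cypher, varied least of these, over 1.72 to 46.3 CPM (median 9.93).

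Among the calcium genes, Pvalb, the cytosolic calcium buffer of fast fibres, was, by replicate, in WT chow at 47.3, 4.96, 451 and 2.04 CPM, KO chow at 83.2, 1.22, 0.967 and 69.2, WT HFD at 38.4, 41.9, 169 and 5.16 and KO HFD at 32.4, 4.81, 20.4 and 3. Atp2a1, the fast calcium pump of the sarcoplasmic reticulum, was, by replicate, in WT chow at 95.7, 9.25, 404 and 3.7 CPM, KO chow at 101.8, 1.09, 1.03 and 83.3, WT HFD at 71.5, 81.1, 271 and 4.85 and KO HFD at 58.3, 1.8, 32.1 and 3.35. Atp2a1 shares 21.9% of its exon bases with Rabep2, which had 278 to 591 counts per library. Both genes were under 10 CPM in the same 7 libraries, which came from all 4 groups. The release channel Ryr1 ranged over 0.882 to 76.5 CPM (median 12.3), its voltage sensor Cacna1s over 0 to 12.6 CPM (median 1.95), the calcium store Casq1 over 1.47 to 74.8 CPM (median 11.7) and its anchor Trdn over 0.121 to 44.8 CPM (median 4.07).

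Of the energy genes, Eno3, muscle enolase, was, by replicate, in WT chow at 41.3, 13.6, 176 and 27.8 CPM, KO chow at 48.3, 16.1, 29.3 and 45.8, WT HFD at 27.8, 30.1, 92.4 and 9.83 and KO HFD at 28.6, 7.47, 15.8 and 8.37. Ckm, muscle creatine kinase, was, by replicate, in WT chow at 69.2, 4.78, 402 and 1.28 CPM, KO chow at 70.8, 0.271, 0.302 and 61.8, WT HFD at 43.3, 56.4, 158 and 4.22 and KO HFD at 37.6, 1.13, 21.4 and 2.44. Eno3 kept over 7 CPM in every library, while Ckm was at 0.271 CPM in KO chow 2 and had 5 counts in KO chow 3. Pygm, muscle glycogen phosphorylase, ranged over 3.05 to 244 CPM (median 28.6), Cox6a2, the muscle form of a cytochrome oxidase subunit, over 0.203 to 11 CPM (median 1.98) and Mb, the oxygen store myoglobin, over 0 to 5.82 CPM (median 0.703). Cox6a2 and Mb share 10.3% and 31.9% of their exon bases with other genes.

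Most members varied together over the 16 libraries. Each member's log2 CPM (prior count 2) was set against the mean log2 CPM of the other 32 tested members: 21 of 33 members had Pearson r over 0.9, and 19 without the 2 libraries farthest from the median. The points are libraries, which share preparation, sequencing and depth with all genes in them. Tnni2 and Tnnt3 lay closest to the rest (r = 0.998 for both, Spearman 1 and 0.994), then Myoz1 (0.994) and Atp2a1 (0.988). Slopes were steepest for Myh4 (1.90, r = 0.986) and Ckm (1.82, r = 0.980), so these fast-fibre genes varied more than the mean of the others. Acta1 had a slope of 1.02 (r = 0.957).

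**Figure D2:**
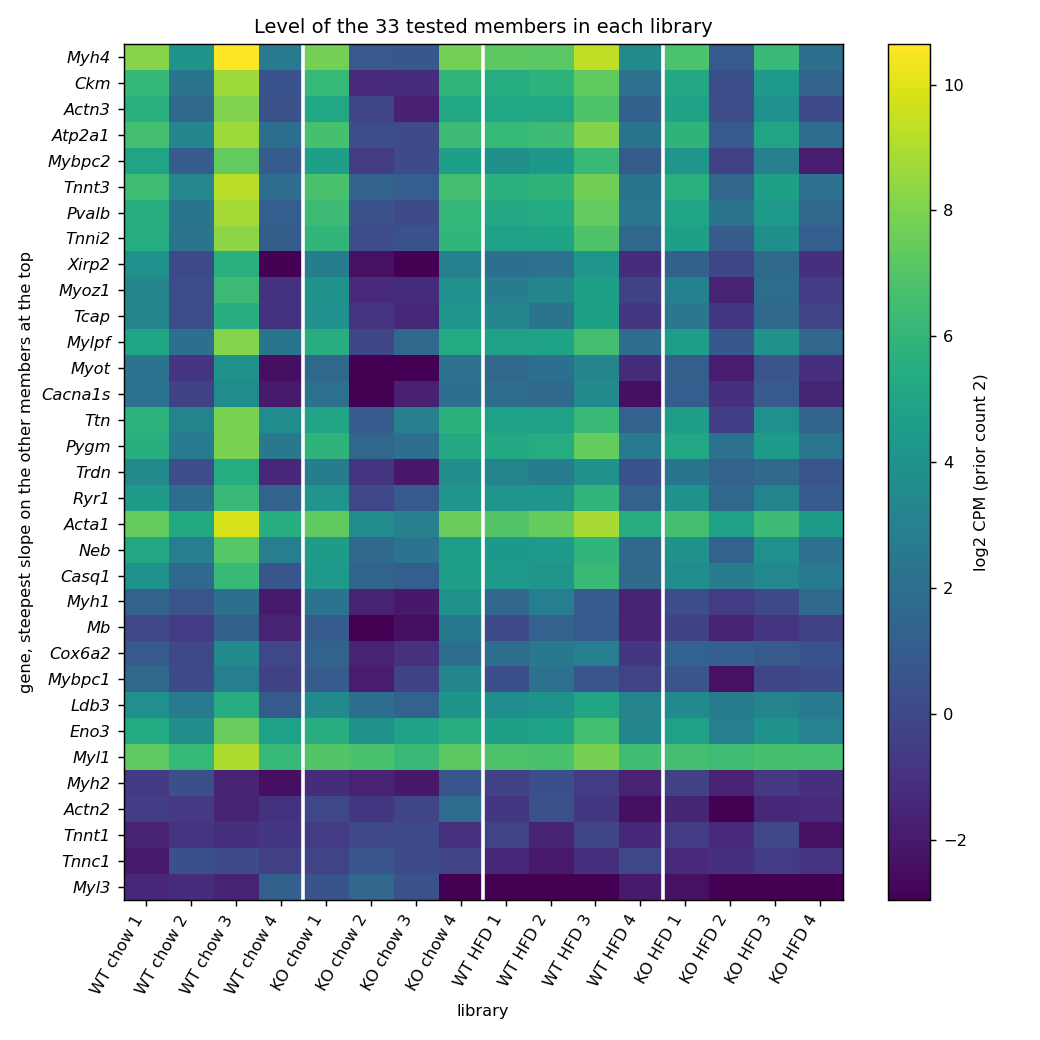
Level of each tested member (rows, log2 CPM with a prior count of 2) in each library (columns; white lines part the 4 groups), ordered by slope on the other members. Rows from Myh4 to Neb darken and brighten together by library, while Myl3, Tnnc1 and Tnnt1 at the bottom do not.

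Another set of members hardly followed the rest. Myl3 (slope −0.37, r = −0.41), Tnnc1 (−0.15, r = −0.34) and Tnnt1 (−0.001, r = −0.002) had the 3 lowest slopes; all 3 belong to slow or cardiac muscle and were under 3 CPM everywhere. Actn2, an actinin found in slow and cardiac fibres among others, had a slope of 0.21 (r = 0.33, 0 to 54 counts per library). Myh2, the IIA heavy chain, had a slope of 0.24 (r = 0.47, 1 to 23 counts). Without the 2 libraries farthest from the median their r was 0.53 and 0.65, in the same order. Myl1 (0.33, r = 0.805) and Eno3 (0.57, r = 0.818) were abundant and still flatter than the other fast genes except Myh2. In the 4 libraries with the fewest member counts Myl1 alone made up 63.2% of them (KO chow 2), 49.5% (KO HFD 2), 50.2% (KO chow 3) and 50.9% (KO HFD 4), against 7.11% in WT chow 3. Acta1 and Eno3 also kept 129 or more and 112 or more counts in every library.

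**Figure D3:**
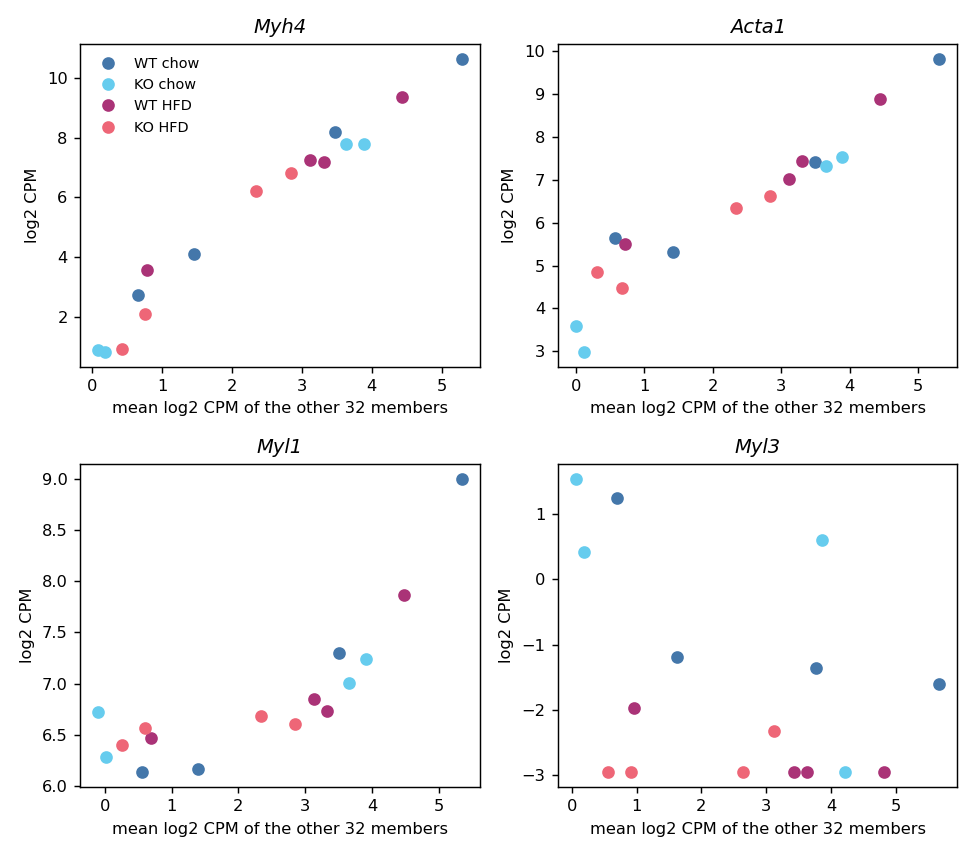
Log2 CPM of Myh4, Acta1, Myl1 and Myl3 against the mean log2 CPM of the other 32 members, 1 point for each library, coloured by group. Myh4 and Acta1 lie along a line, Myl1 stays near its floor until the others are high, and Myl3 is highest in libraries where the others are low, with KO chow 1 as the exception.

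Genes outside the list with the most similar pattern were named by their Pearson r with the members' mean over the 16 libraries. The 10 highest were Klhl31 (r = 0.991), Myom2 (0.986), Art1, Ppp1r3a, Jsrp1, Hrc, Eef1a2, Nrap, Klhl41 and Tpm2 (0.967). Myom2 is a component of the M-band and had 0 to 443 counts, Tpm2 encodes beta-tropomyosin and ranged from 7.60 to 272.0 CPM. Of 16516 tested non-members, 59 had r over 0.9 (0.357%), and 19 of them were among the 31 tested genes of a second list of 39 skeletal muscle genes. The mean log2 CPM of that list had r = 0.990 with the members' mean.

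Other lists were described in the same way. The mean log2 CPM of lymphoid genes had r = −0.11 with the members' mean, of Schwann cell genes −0.07, of white adipocyte genes 0.08, of brown and beige adipocyte genes −0.28, of keratinocyte genes 0.26, of endothelial genes 0.40, of cardiac genes 0.42 and of smooth muscle genes 0.53. Summed over its 14 genes, the lymphoid list ran on chow from 14.1 to 1009 CPM for WT and from 18.5 to 927 for KO, and on HFD from 7.37 to 534 for WT and from 10.5 to 656 for KO. Muscle-building genes were near their floor: 11 of 12 genes of satellite cells and myogenic factors were under 1 CPM in all libraries, Pax7 had 0 to 3 counts and Myod1 0 to 4. Myf6, a myogenic factor of mature fibres, had up to 39 counts (WT HFD 3) and 24 in WT chow 3. Myh3, the embryonic heavy chain, was at 0 in 15 libraries and at 10 counts in KO chow 1, and Myh8, the perinatal one, had at most 4. The 12 keratinocyte and skin genes held 248 to 803 counts per library together, 15.8 to 50.5 CPM. Among them Sbsn had 90 to 421 counts, Trp63 27 to 179 and Krt10 40 to 91, while the basal keratins Krt5 and Krt14 had at most 15 and 4. The part of other cell types in the members' levels was not tested.

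Myosin heavy chain transcripts were mostly of the fast kind. The fast heavy chains Myh1, Myh2 and Myh4 made up 100% of adult myosin heavy chain counts in all but 3 libraries; Myh7, the slow heavy chain, had 4 counts in WT chow 4, 1 in KO chow 1 and 4 in KO chow 3. The lowest fast share was 88.6%, in KO chow 3, from 35 counts. Myh4 alone was 95.6% at the median, from 53.6% in KO HFD 4 to 99.7% in WT chow 3. Slow Tnnt1 and Tnni1 made up 1.51% and 1.52% of their pairs with fast Tnnt3 and Tnni2 at the median. Their highest shares were 31.2% for Tnnt1 (15 of 48 counts, KO chow 3) and 33.3% for Tnni1 (8 of 24 counts, KO chow 2). Actn2 was 2.56% of Actn2 and Actn3 at the median and 81.2% in KO chow 3 (13 of 16 counts), and Mybpc1 was 13.9% of Mybpc1 and Mybpc2 at the median and 87.5% in KO HFD 4 (14 of 16 counts). Each of these 4 highest shares rests on 48 or fewer counts.

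Libraries with many member counts differed in their fibre genes. Myh1, the heavy chain of IIX fibres, was 0.257% of adult heavy chain counts in WT chow 3 and 0.271% in WT HFD 3. In KO chow 4 it was 6.82% (262 of 3843 counts), and in WT HFD 2 it was 4.89%. KO chow 4 had the most counts of several scarce genes: 93 of Mb, 54 of Actn2, 153 of Mybpc1, the slow myosin-binding protein, and, outside the list, 44 of Csrp3 and 38 of Lmod2. WT chow 3 had 33 of Mb, 3 of Actn2 and 107 of Mybpc1 beside 24073 counts of Myh4, which had 3558 in KO chow 4. Mb was 8.60% of the sum of Mb and Ckm counts in KO chow 4 and 0.543% in WT chow 3. These are single libraries with no replicate of their own.

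KO and WT were compared first, within each diet and with the diets pooled. No member was called in either diet or with the diets pooled (edgeR, lowest adjusted p = 1 in each), where 0.00604% of all genes tested were, 1 gene, Kmo. At an unadjusted p under 0.05 there was 1 member on chow (Actn2, log2 fold change 1.71, adjusted p = 1, edgeR) and 0 on HFD and with diets pooled, where 1%, 1.14% and 0.997% of all genes were; DESeq2 and limma-voom called 0. The fold changes themselves were large and imprecise. On chow 25 of 33 members were below 0 with a median of −1.46, and on HFD 33 of 33 with a median of −1.75, where the medians over all genes were −0.0048 and 0.002. Of all genes tested, 48.6% were above 0 on chow and 50.6% on HFD. Most members varied together over the libraries, so these counts of members are not separate observations. Over both diets the members' median was −1.62. The median half-width of the members' 95% intervals was 2.80 on chow and 2.92 on HFD, against 0.434 and 0.435 over all genes.

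By role, the median log2 fold change on chow was −0.37 for thick-filament, −1.60 for thin-filament, −1.55 for Z-disc, −1.46 for calcium and −1.09 for energy genes. Acta1 was at 292.8 ± 416 CPM in WT chow and 91.3 ± 94.6 CPM in KO chow (SD, n = 4), a log2 fold change of −1.68 (SE 1.18, adjusted p = 1, edgeR). On HFD Acta1 had 205 ± 186 CPM in WT and 57.8 ± 38.1 CPM in KO (SD, n = 4). Myh4 stood at 478 ± 760.1 and 112 ± 127 CPM on chow (SD, n = 4) and had the lowest fold change on HFD (−2.34, SE 1.88). Ckm was −1.84 on chow and −2.07 on HFD, Pvalb −1.71 and −2.07, and Myl1 −0.81 and −0.52. All of these intervals included 0 and no member's libraries were parted by genotype, where the libraries of 0.556% of all genes were on chow, 1.42% on HFD and 0.00604% with the diets pooled.

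**Figure D4:**
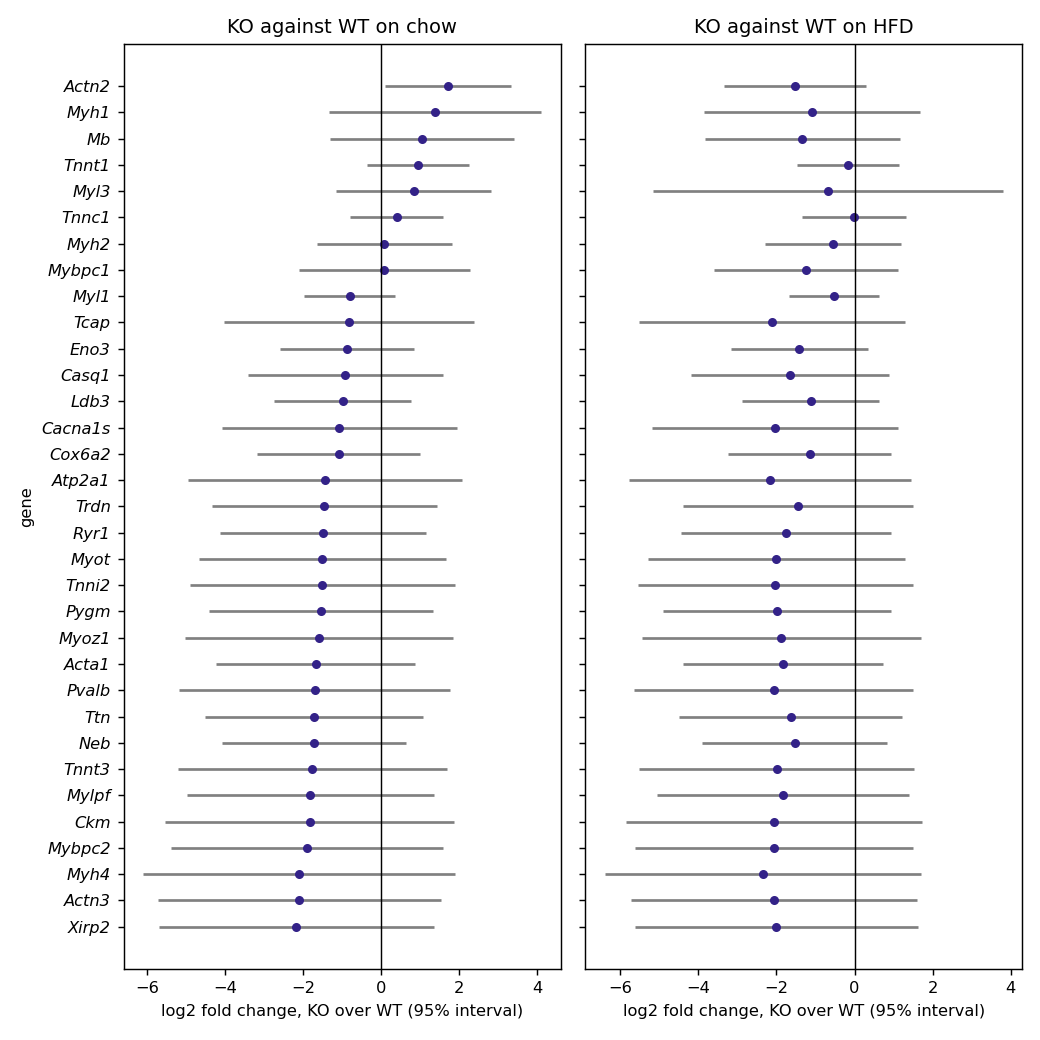
Log2 fold change of KO over WT for the 33 tested members on chow (left) and HFD (right), with 95% intervals as horizontal lines. Points lie mostly below 0 on chow and all below 0 on HFD, and Actn2 on chow is the 1 interval that leaves out 0.

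One library set the direction of the median on chow. Without WT chow 3 it turned to 0.37 and that over both diets moved to −0.55. Without WT HFD 3 the median on HFD kept its sign (−0.89, with 1 of 33 members above 0). Leaving out WT chow 3 and WT HFD 3 together gave 0.37 on chow, −0.89 on HFD and −0.20 over both, with 0 members called in each. With the mean of the other skeletal muscle genes as a covariate, the members' medians were −0.21 on chow, 0.11 on HFD and −0.03 over both, again with 0 called. That covariate lies so close to the members (r = 0.990) that it takes out any change they share with it, whatever its source.

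Diet was then compared within each genotype. In WT, 0 of 33 members passed in HFD against chow, where 11.8% of all genes did. The members' median was −0.58 and 1 member had an unadjusted p under 0.05 (29.4% of all genes), Myl3 (adjusted p = 0.0562, edgeR; DESeq2 called it, limma-voom did not). In KO, 2 members fell, Myl3 and Actn2, where 12.5% of all genes tested were called and 5.23% lower. Over both genotypes 1 member fell, Myl3, where 33.1% were called and 16% lower. None rose. In WT and over both genotypes the members' share of calls was below these backgrounds, and in KO 2 of 33 (6.06%) was below the share called and close to the share called lower. Their median 95% half-widths were 2.79 in WT, 2.86 in KO and 1.997 over both. One library set the direction of the WT median: without WT chow 3 it was 1.27, with 31 of 33 members above 0, and without WT chow 3 and WT HFD 3 together it was 0.42. It was also above 0 with the replicate block (0.30) and in limma-voom (0.64). Over both genotypes the median was −0.79, and −0.31 without both libraries.

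Myl3, the essential light chain of slow and cardiac fibres, was the member called for diet in the pooled test. It was, by replicate, in WT chow at 4, 5, 3 and 35 counts, KO chow at 22, 41, 20 and 0, WT HFD at 0, 0, 0 and 2 and KO HFD at 1, 0, 0 and 0. Only 4 libraries, all on chow, held 20 or more counts. Myl3 thus passed the filter on low counts through the diet in which it was high, and its diet test is not independent of that filter. In the fit without the filter 1 member was called over both genotypes, 2 in KO and 0 in WT. The 8 HFD libraries held 3 counts together and the chow libraries 130, and in WT all HFD libraries were below all chow libraries (as for 7.43% of all genes tested), while in KO 1 chow library was also at 0. The counts per read pair were 24.1-fold higher on chow in WT (counting interval 6.31 to 204.7) and 81.4-fold in KO (14.2 to 3254.5). These intervals use counts summed over the mice of a group, so they cover counting error only and leave out the spread between animals. The fitted log2 fold changes were −4.25 in WT (SE 1.38), −5.76 in KO (SE 1.46, adjusted p = 0.0210, edgeR) and −5.001 over both (SE 1.01, adjusted p = 0.00201, edgeR); with so few counts on HFD they depend on the prior count. WT chow 4 held 35 of the 47 counts of WT chow; without it the fold change in WT was −2.73 (adjusted p = 0.255, edgeR), and over the 16 fits that left out 1 library it ran from −6.55 to −2.73 and passed in 2. The call in KO was lost without KO chow 2 or without KO HFD 2, 3 or 4 (adjusted p up to 0.0704) and with only the 8 KO libraries in the fit. The pooled call was kept in all 16 fits that left out 1 library.

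The libraries with the most Myl3 were also those with the most Ucp1, the heat-making protein of beige and brown fat. The 4 libraries with 20 or more counts of Myl3, WT chow 4 and KO chow 1, 2 and 3, had 3472, 2244, 2535 and 1218 counts of Ucp1. The other chow libraries had 158 to 526 and the HFD libraries 9 to 45. Of the 10 brown and beige adipocyte genes, 9 were tested and 5 fell on HFD over both genotypes (Ucp1, Cidea, Cox7a1, Cox8b and Ppargc1a), where 16% of all genes were called lower. The list summed to 317 to 941 CPM on chow and 148 to 254 on HFD. Myl3 also shares 4.6% of its exon bases with Pth1r on the other strand, and Pth1r had 775, 672, 784 and 576 counts in the same 4 libraries, 221 to 464 in the other chow libraries and 91 to 153 on HFD. Without strand, read pairs of Myl3 and Pth1r cannot be told apart where they overlap, and the part of either gene's pattern in the Myl3 counts was not tested. The 12 genes of the cardiac list held 217 to 1278 counts per library together, 14.7 to 41.2 CPM on chow and 49.1 to 81.2 on HFD. Myl4, the atrial light chain, had 106 to 360 counts on chow and 537 to 1023 on HFD and rose over both genotypes (log2 fold change 2.02, adjusted p = 8.02e-05, edgeR). Ryr2, the cardiac release channel, rose too (1.10, adjusted p = 0.0400, edgeR) and Tnni3, cardiac troponin I, fell (−1.30, adjusted p = 0.00841, edgeR). Tbx5 did not pass, and the other 8, which were too low to test, had 24 counts or fewer in every library, with Myl7 at 0, Nppa at 3 or fewer and Myh6 at 4 or fewer. The part of these genes in the Myl3 counts was not tested.

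**Figure D5:**
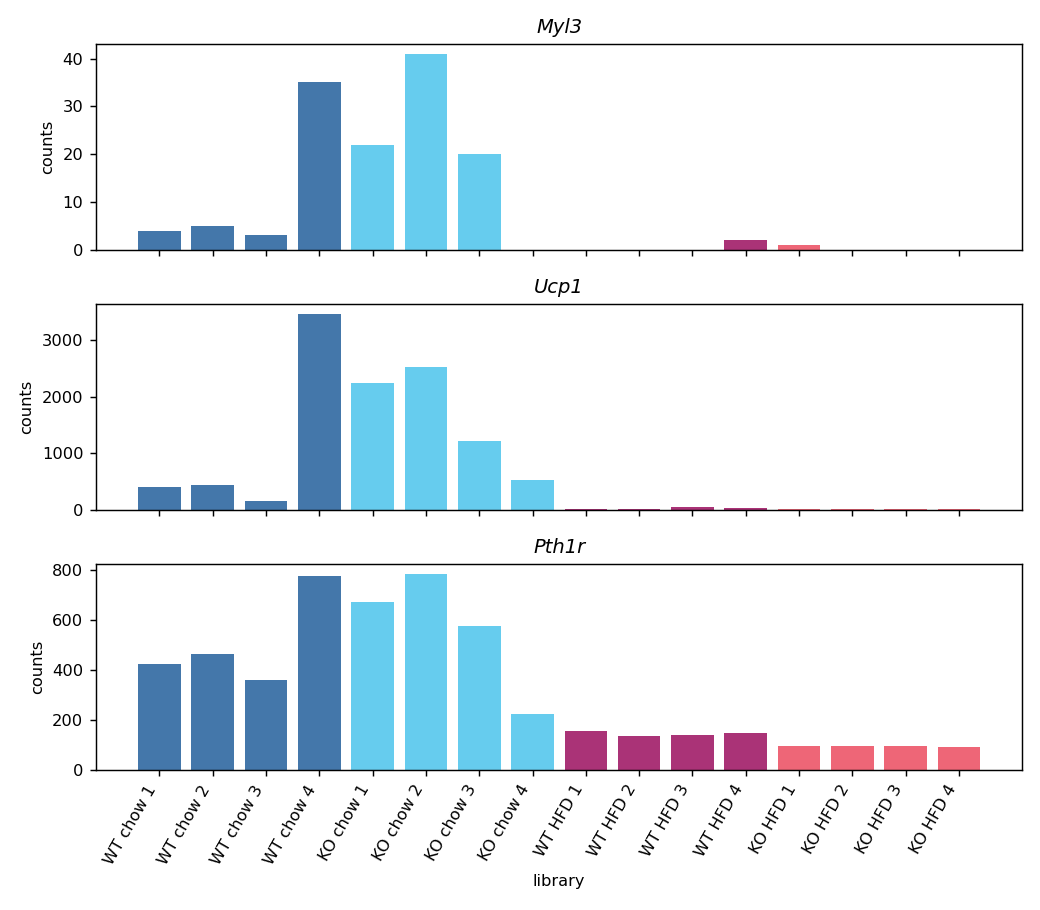
Counts of Myl3, Ucp1 and Pth1r in each library (bars from 0, coloured by group, 1 panel for each gene). WT chow 4 and KO chow 1, 2 and 3 hold 20 to 41 counts of Myl3 and are also the 4 highest libraries for Ucp1 and for Pth1r.

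Actn2 was, by replicate, in WT chow at 9, 8, 3 and 6 counts, KO chow at 14, 7, 13 and 54, WT HFD at 7, 19, 7 and 1 and KO HFD at 3, 0, 4 and 4. In KO all HFD libraries were below all chow libraries (as for 8.47% of all genes tested) and Actn2 fell on HFD (log2 fold change −2.85, SE 0.830, adjusted p = 0.0363, edgeR), whereas in WT it was 0.38 (SE 0.782, adjusted p = 0.779). The interaction was −3.24 (SE 1.14, unadjusted p = 0.0123, adjusted p = 1), so the difference between the genotypes did not pass. The call in KO rested on counts of 14 or fewer in 7 of 8 libraries and 54 in KO chow 4. It was lost without KO chow 3 or 4 or any 1 KO HFD library (adjusted p up to 0.109, −1.91 without KO chow 4). Tnnc1 was also lower in every KO HFD than in every KO chow library (by replicate, WT chow at 2, 19, 15 and 10 counts, KO chow at 12, 21, 16 and 12, WT HFD at 4, 2, 5 and 14 and KO HFD at 4, 5, 9 and 6) and did not pass (log2 fold change −1.27, SE 0.588, adjusted p = 0.162).

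Of the 13 fast-fibre members 12 were tested, and 0 were called for diet in either genotype or over both. Acta1 had a log2 fold change of −0.51 in WT and −0.66 in KO, Myh4 −0.98 and −1.22, Ckm −0.86 and −1.09, and Atp2a1 −0.26 and −0.97, with SEs from 1.15 upward. All 4 WT values turned above 0 without WT chow 3 (1.24, 1.22, 1.39 and 1.57 in the same order). Without WT chow 3 and WT HFD 3 together they were 0.42, −0.02, 0.47 and 0.54. With the other muscle genes as a covariate, which leaves what a member did beyond the shared pattern, 5 of 33 members passed over both genotypes, where 33.7% of all genes did in that fit: Myl3 (−4.94), Eno3 (−0.88, adjusted p = 0.00868) and Neb (−0.32, adjusted p = 0.0476) lower, and Casq1 (0.73, adjusted p = 0.0193) and Cox6a2 (0.91, adjusted p = 0.0495) higher (edgeR). In the same fit 2 members passed in WT (Myl3 and Neb, both lower; 12.1% of all genes) and 3 in KO (Myl3, Eno3 and Actn2, all lower; 15.8% of all genes). Casq1 had a fold change below 0 without the covariate. Cox6a2 overlaps Itgad, which had 4 to 446 counts on chow and 212 to 1209 on HFD. The part of Itgad in the Cox6a2 counts was not tested.

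In the interaction of genotype and diet, 0 of 33 members and 0% of all genes tested were called (edgeR, lowest adjusted p of a member 1; 1 member, Actn2, at an unadjusted p under 0.05, where 1.13% of all genes were; DESeq2 and limma-voom called 0 members). The members' median was −0.36, with a median 95% half-width of 3.99 against 0.615 over all genes. In the authors' deposited tables of KO against WT, 33 members are listed for both diets, 2 for 1 diet and 2 for neither. The shrunken log2 fold changes in the authors' deposited tables lie between −1.69e-06 and 4.61e-06 on chow and between −1.45e-05 and 3.37e-05 on HFD for the members, with adjusted p-values of 1. Values shrunk this close to 0 do not give the size of a difference. Unadjusted p (DESeq2) was under 0.05 on HFD for Ldb3 (0.00232), Trdn (0.0109), Acta1 (0.0233), Myl1 (0.0427), Casq1 (0.0456) and Cox6a2 (0.0486). On chow it was under 0.05 for Actn2 (0.0167, DESeq2). The share of all genes under 0.05 there is not given here.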

How the data were processed

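Poly-A RNA of 16 inguinal fat samples was sequenced in pairs of 150 bases with a stranded kit, per the labels' protocols. The authors aligned with STAR 2.7.3a to GRCm38.p6 and counted with featureCounts 2.0.3, per the submitters' processing notes; the deposited counts are whole numbers per Ensembl 102 gene, not normalised and counted without strand, per the file headers. The lane codes in the headers show 12 libraries that join lanes and 4 from a single lane. The authors' deposited tables of KO against WT give shrunken log2 fold changes, p-values and mean normalised signal (baseMean), the p-values by DESeq2 per the submitters' processing notes.

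Genes were joined by Ensembl identifier. With R 4.3.3 and edgeR 4.0.16, filterByExpr left 16549 genes, TMM factors were computed and a quasi-likelihood model (glmQLFit, robust) with 4 group means was fitted to all 16 libraries. Benjamini-Hochberg adjustment ran over all tested genes, with a call at an adjusted p under 0.05. Intervals are 95%. CPM uses TMM factors; log2 CPM has a prior count of 2; TPM used the deposited exon length, another column of the authors' count table. Alternatives used DESeq2 1.42.0 and limma 3.58.1. The model was tested on simulated data. Sequences and motif counts came from RefSeq promoters.

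The members and lists were chosen with earlier results of these data known. Members given in every library are the 2 of each role with the highest mean TPM, those called in the main fit, Myh4 and Tnnc1. Other fast and slow partners are given by totals, ranges, shares or single libraries. Replicates are separate animals by their codes. No 2 libraries of a group agreed within sampling noise (lowest chi-square per gene 10.1).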

Additional observations from a re-analysis of the deposited data

Results flagged for a closer look

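Of 84 sets of 4 libraries examined (20 members and the share of counts, in 4 groups), 4 held 1 library far from the other 3; chance gives such a library in about 1 of 20 sets. In WT chow, replicate 4 had a log2 CPM of Myl3 of 1.24, where the others lay between −1.60 and −1.19. On HFD the Myl3 entries are single libraries with a count against libraries at 0: WT HFD 4 at −1.97 (2 counts) and KO HFD 1 at −2.32 (1 count), with the others at −2.95. Actn2 was lowest in KO HFD 2, at 0 counts and a log2 CPM of −2.95, against −1.55 to −1.29 in the other KO HFD libraries. WT chow 3 and WT HFD 3, the highest libraries for most members, were not among them. The rule took members on the log2 scale and the share in percent. For the share in WT chow, replicate 3 was at 0.691% and the others at 0.0228% to 0.137%.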

How the results depend on the processing

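Counts of members called in KO against WT (0 in each diet and in the pooled test) and in the interaction (0) were the same in every alternative run. Medians of the members' log2 fold changes moved by less than 1 SD of the members' mean level between replicates in most alternatives and turned sign in several. That SD was 1.81, which exceeds every median of the main fit in size. A move within it therefore does not show a stable median. Without the 2 libraries with the most member counts, chosen after seeing the data, the KO against WT median on chow was 0.37. With the other muscle genes as a covariate the median on HFD was 0.11, members called for diet were 2 in WT, 3 in KO and 5 over both genotypes, and Casq1 turned from below 0 to 0.73 over both genotypes. DESeq2 called 1 member for diet in WT. In KO, 1 was called with the single-lane term and 0 with only the KO libraries; over both genotypes 2 were called with the lymphoid covariate or the single-lane term. Leaving out 1 library gave medians of −1.89 to 0.37 (KO against WT on chow), −1.34 to 1.27 (diet in WT, highest without WT chow 3) and −2.26 to 0.58 (interaction). The KO against WT median on HFD was −0.89 without WT HFD 3 and −2.32 without KO HFD 1. Calls in the fits without 1 library were 0 to 1 for diet in WT, 0 to 2 in KO and 1 to 2 over both genotypes.

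Replicate numbers are shared between groups, but correlations of same-numbered libraries ran from −0.69 to 0.55 over 24 pairs, so the numbers do not pair the animals. With the replicate number as a block, 1 member was called for diet in KO, 0 in WT and 1 over both, and the KO against WT medians were −0.04 on chow, −1.84 on HFD and −0.997 over both.

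Depth limits the scarce members: Myl3, Actn2, Myh2, Tnnc1 and Tnnt1 rest on 54 or fewer counts in any library. Myh7, Myl2, Tnni1 and Tnnc2 had too few to test.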
